A study of Zea mays with 16 samples.

Results

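ZmSMC1, ZmSMC3, ZmRAD21 and ZmSGO1 are the maize genes for cohesin subunits and for shugoshin, the protein that guards cohesin at centromeres. Their transcripts were read from every array probe, control spots left out, whose target name contains SMC1, SMC3, RAD21 or SGO1, with case ignored. The names picked out 14 of 42034 probes: 2 for ZmSMC1, 4 for ZmSMC3, 7 for ZmRAD21 and 1 for ZmSGO1. The rule uses names only, but the genes were picked for study with earlier results of these data known. None of the 14 probes passed the test in the ms23 mutant, where 1.31% of all probes tested did, in the ms32 mutant, where 0.49% did, or between the mutants, where 20.6% did. The largest mean ratio of a gene to its fertile sibling was that of ZmSMC3 in ms23 mutant anthers, about 1.30-fold. All 4 of its probes were above 0 on both arrays, as were 26.5% of all probes. These 4 probes read the same samples, and both arrays may carry the same RNA. Each of the 4 missed the threshold.

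The study compared whole maize anthers, collected when 1.5 mm long, from 2 male-sterile families. The 4 groups were ms23 mutants (6 labelled samples), fertile siblings of the ms23 family (2), ms32 mutants (6) and fertile siblings of the ms32 family (2). No treatment was given, and the labels name no inbred background or allele. RNA from field-grown plants was amplified, labelled with Cy3 or Cy5 and hybridised in pairs to 8 two-colour Agilent arrays, so each array gave 1 direct ratio. Slide 1 paired the ms23 and ms32 mutants on all 4 of its arrays, and slide 2 gave 2 arrays to each mutant and its own sibling. Each pair of arrays was a dye swap. The series text counts 2 biological replicates for a mutant and its sibling, but the titles give the same replicate number to both arrays of a swap. Those arrays may therefore differ by technical spread only. The p-values pool the spread of all 8 arrays, where only the mutants on slide 1 add spread between replicate numbers (1 and 2). They may understate the spread between plants.

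Cohesin is a ring of proteins that holds sister chromatids together from DNA replication until they part. SMC1 and SMC3 are the long coiled-coil ATPases that pair to form most of the ring, and RAD21 is the kleisin that closes it and is cut by separase at anaphase. In meiosis the kleisin REC8 takes over much of this role, and shugoshin keeps centromeric cohesin from being cut in the first division, so that sisters stay joined until the next one. Maize anthers near this length hold meiotic cells at or close to entry into meiosis, surrounded by somatic layers, of which the tapetum is the innermost. MS23 and MS32 are basic helix-loop-helix transcription factors that the tapetum needs in order to differentiate.

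Between 81.2% and 94.8% of the probes were well above background in a sample, and the median spot intensity lay between 94.0 and 232 units. Levels are given as log2 intensity after background correction, loess within each array and Aquantile scaling between arrays. A ratio is the limma estimate from all 8 arrays with a dye term per probe, and a probe was called at a Benjamini-Hochberg adjusted p under 0.05 over all 39981 probes that passed the filter on dim probes. The array names matched neither ms23 nor ms32 nor any tapetal gene on a list of 21 names, so the mutated genes and the tapetum could not be checked by name. The meiocyte list of 7 names matched AM1, which was well above background in all 16 samples on its 3 probes. The leaf list of 10 names and the endosperm list of 5 matched 0 probes. Of 39174 target names, 2 equalled a reference gene symbol, synonym or accession. These lists therefore say nothing about leaf or endosperm transcripts. In whole anthers, fewer cells of a type and less RNA per cell cannot be told apart.

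All 14 probes passed the filter, and 204 of their 224 values were well above background, with 0 saturated. The 2 ZmSMC1 probes, the 4 ZmSMC3 probes and the ZmSGO1 probe were well above background in all 16 samples. Of the 7 ZmRAD21 probes, 4 were (A_92_P009011, A_92_P020535, A_92_P026108 and A_92_P031341). The other 3 were so in 14 samples (A_92_P025164), 12 samples (A_92_P018022) and 2 samples (A_92_P009368). A_92_P009368 passed the filter only through the ms32 fertile sibling, in 1 of its 2 samples.

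The probes of the 4 genes gave signals over wide and partly overlapping ranges, which are not comparable between genes. After subtraction of the local background, the ZmSMC1 probes gave 172.5 to 1782.5 intensity units over the 16 samples. The ZmSMC3 probes gave 93.0 to 6281.5 units and the ZmSGO1 probe 33.0 to 420 units (median 79). The ZmRAD21 probes gave 1.50 to 217 units. For the ZmRAD21 and ZmSGO1 probes the offset of 50 added in the background correction was of the order of the signal. It draws their ratios toward 0.

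**Figure D1:**
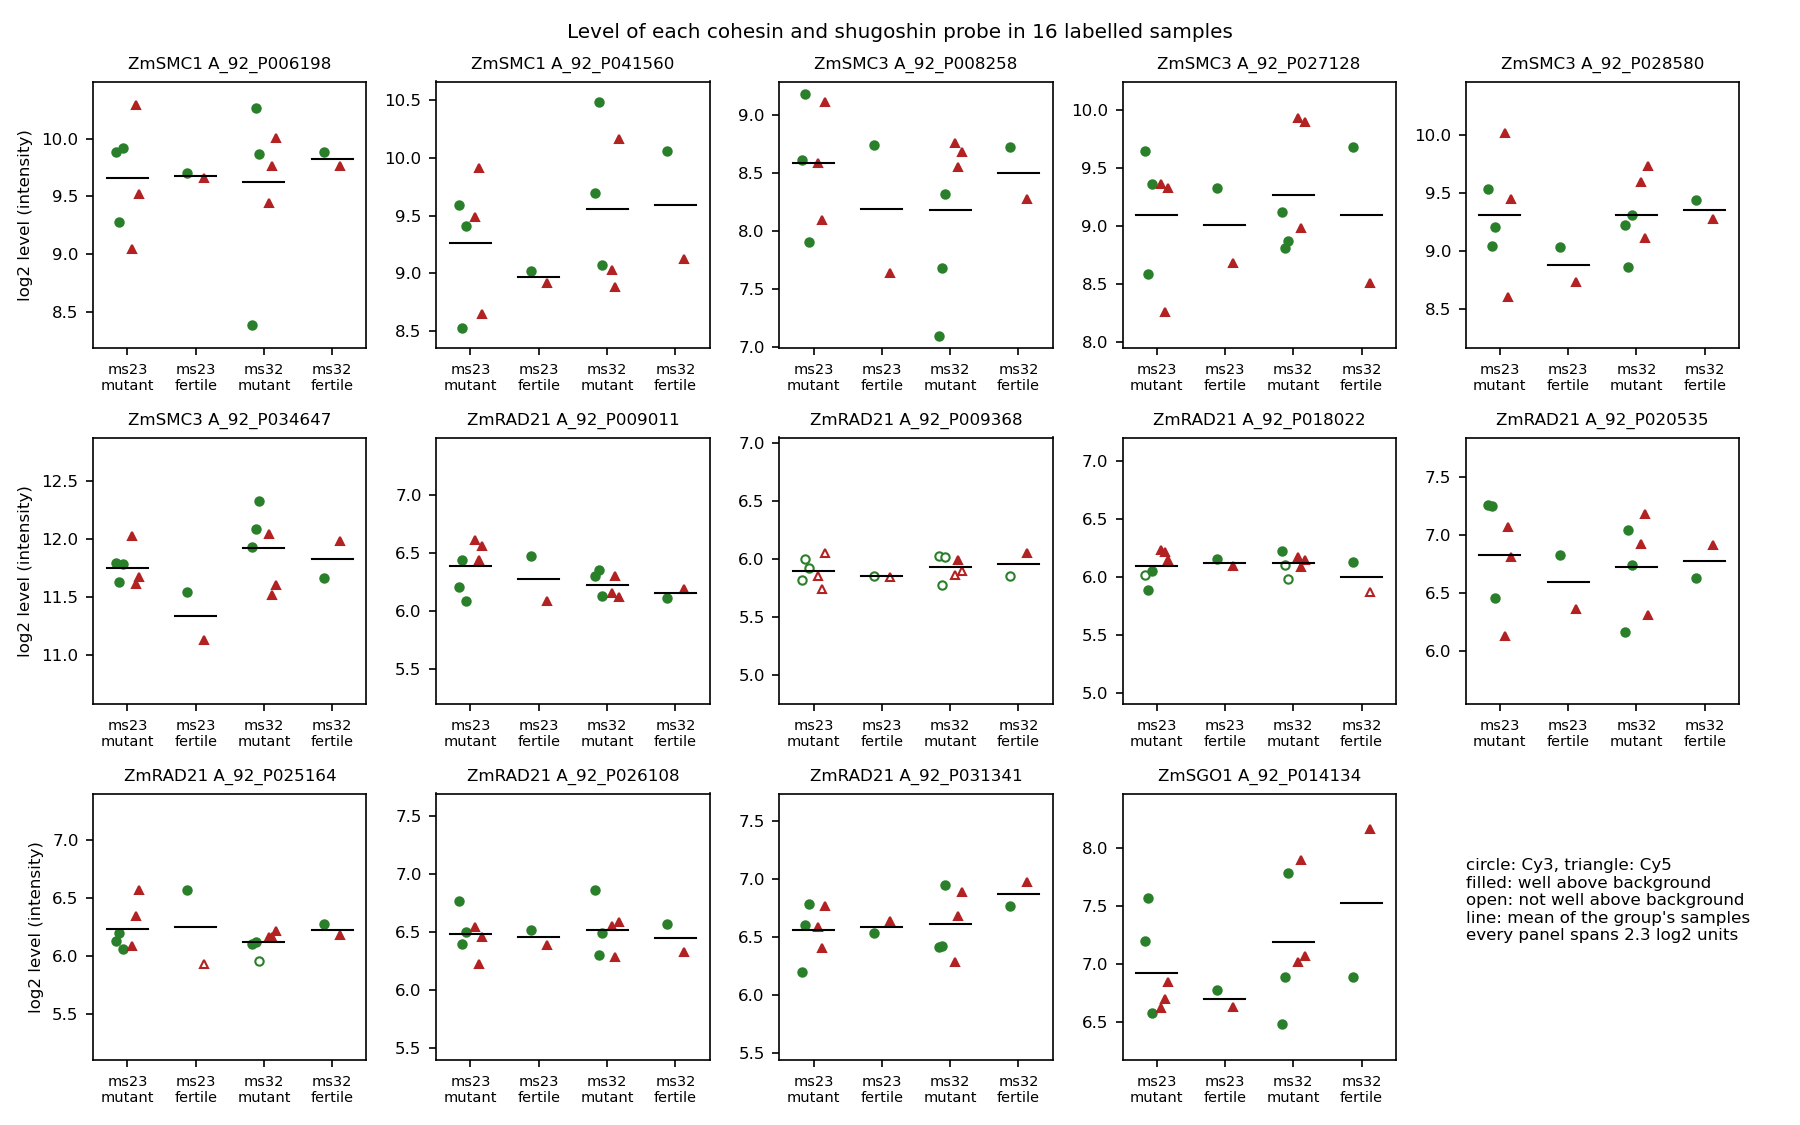
The log2 level (normalised intensity, vertical axis, 2.3 log2 units in every panel) of each of the 14 probes is shown for the 16 samples by group, with circles for Cy3, triangles for Cy5, open symbols for samples not well above background and a line at the mean of the group's samples. Points of the groups intermingle in nearly all panels; in the panel of ZmSMC3 probe A_92_P034647 the 6 ms23 mutant samples, from 11.62 to 12.02, lie above both ms23 fertile sibling samples, and most ZmRAD21 panels sit near 6.

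The order of the 4 groups differed from probe to probe. Siblings were hybridised on slide 2 only and most mutant samples on slide 1, so the order mixes slide with group. It also leaves out the pairing on arrays and can differ in direction from the limma ratios. On ZmRAD21 A_92_P031341 the ms23 mutant had the lowest mean level, while its limma log2 ratio to its sibling was 0.19. The ms32 fertile sibling had the highest mean level on 6 of 14 probes, either mutant on 3 each and the ms23 fertile sibling on 2. The ms23 fertile sibling had the lowest mean on 7 probes, which included 3 of the 4 ZmSMC3 probes. These counts and the next were made for the member probes only, so whether they are usual on these arrays is not known. Of the 42 pairs of groups that were neighbours in a probe's order, 40 had overlapping sample ranges. The exceptions were the ms23 mutant over its sibling on ZmSMC3 A_92_P034647 and the ms32 over the ms23 fertile sibling on ZmSMC1 A_92_P006198, and both involve groups of 2 samples. On A_92_P006198 the limma log2 ratio of the ms23 over the ms32 fertile sibling pointed the other way. It was 0.23, with a 95% confidence interval from -0.84 to 1.31.

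The first question was whether cohesin transcripts differ between ms23 mutant anthers, whose tapetum fails, and anthers of fertile siblings. The limma test called 0 of 14 probes (smallest adjusted p = 0.485), where it called 1.31% of all probes tested (525 probes, and 32 with each dye swap averaged into 1 value). At an unadjusted p under 0.05 the count was also 0, against 11.6% of all probes. The median log2 ratio of the 14 probes was 0.059 and their median size without sign was 0.059, against -0.00027 and 0.12 over all probes tested. The 14 include the 7 ZmRAD21 probes and the ZmSGO1 probe, whose ratios the offset draws toward 0.

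ZmSMC3, the SMC subunit that pairs with SMC1 and whose acetylation stabilises the closed ring in yeast and animals, had the largest ratio of the 4 genes in this comparison. Its mean log2 ratio over 4 probes was 0.37 (1.30-fold), with single probes between 0.32 and 0.44 and a median standard error of 0.23. Of the 14 member probes, 6 had a ratio above 0 on both arrays, against 26.5% of all probes. Among the 6 was ZmRAD21 A_92_P009368, which was not well above background in any sample of the ms23 family. All 4 ZmSMC3 probes were also among them, with array means of 0.23 (mutant in Cy5) and 0.52 (mutant in Cy3). Their lowest single value was 0.0037. Both arrays may carry the same RNA, and the 4 probes share those samples, so their agreement is not 8 independent readings.

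The brightest ZmSMC3 probe, A_92_P034647, had levels of 11.55 and 11.13 in the ms23 fertile sibling. The 6 ms23 mutant samples ran from 11.62 through a median of 11.73 to 12.02, and their mean over replicate numbers was 11.75 ± 0.15 (SD, n = 3). The groups did not overlap, and this held for 1 of 14 member probes against 9.55% of all probes. The mutant's sibling was hybridised on slide 2 only, while 4 of the 6 mutant samples were on slide 1. The limma log2 ratio, which uses the shared arrays, was 0.39 ± 0.17 (SE) with a 95% confidence interval from -0.033 to 0.82 and an adjusted p of 0.485.

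The other ZmSMC3 probes gave limma log2 ratios of 0.44 (A_92_P028580, adjusted p = 0.605), 0.34 (A_92_P027128, adjusted p = 0.735) and 0.32 (A_92_P008258, adjusted p = 0.881). On A_92_P028580 the sibling samples were at 9.04 and 8.73, and the mutant samples at 8.61 to 10.02 with a median of 9.33. On A_92_P027128 they were at 9.33 and 8.68, and at 8.26 to 9.64 with a median of 9.34. On A_92_P008258 they were at 8.74 and 7.64, and at 7.91 to 9.19 with a median of 8.60. The groups overlapped on each of these probes, with some mutant samples above both sibling samples and others below the higher one. The mean ratio of ZmSMC3 was 0.15 without the array with the mutant in Cy3 and 0.60 without the array with the mutant in Cy5. It was 0.76 with median centring in place of loess.

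ZmSMC1, the partner of SMC3 in the ring, showed no ratio of one direction. Its mean log2 ratio in the ms23 mutant was 0.048, from -0.28 on the array with the mutant in Cy5 and 0.37 on the swapped array. On A_92_P006198 the sibling samples were at 9.70 and 9.66 and the mutant samples at 9.05 to 10.29 with a median of 9.70. On A_92_P041560 the sibling samples were at 9.02 and 8.92 and the mutant samples at 8.53 to 9.91 with a median of 9.45. Both probes overlapped between the groups. Their 95% confidence intervals reached from -0.64 to 0.72 and from -0.59 to 0.70.

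ZmRAD21, the kleisin that closes the ring, had a mean log2 ratio of 0.073 in the ms23 mutant over its 4 measured probes, with single probes at 0.023 to 0.19. The highest was A_92_P031341, above 0 on both arrays (0.14 and 0.23), with an interval from -0.024 to 0.40 and a limma adjusted p of 0.513. Its sibling samples stood at 6.53 and 6.64 within the mutant range of 6.20 to 6.78. A_92_P009368 was not well above background in any sample of the ms23 family, so no fold is given for it. ZmSGO1 had a log2 ratio of 0.012 with an interval from -0.40 to 0.43. Its sibling samples were at 6.77 and 6.63, and the 6 mutant samples ran from 6.58 through a median of 6.78 to 7.57.

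The intervals cover the spread between these arrays, with both arrays of a swap counted singly and 1 replicate number per sibling group, and so set no limit on a difference between plants. The 95% confidence interval stayed within a 2-fold difference in either direction for 12 of 14 probes, as it did for 80.6% of all probes tested. The 2 others were ZmSMC3 probes A_92_P008258, whose interval reached 1.104 on the log2 scale, and A_92_P028580, which reached 1.03. The 12 include the ZmRAD21 and ZmSGO1 probes, whose intervals the offset narrows.

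**Figure D2:**
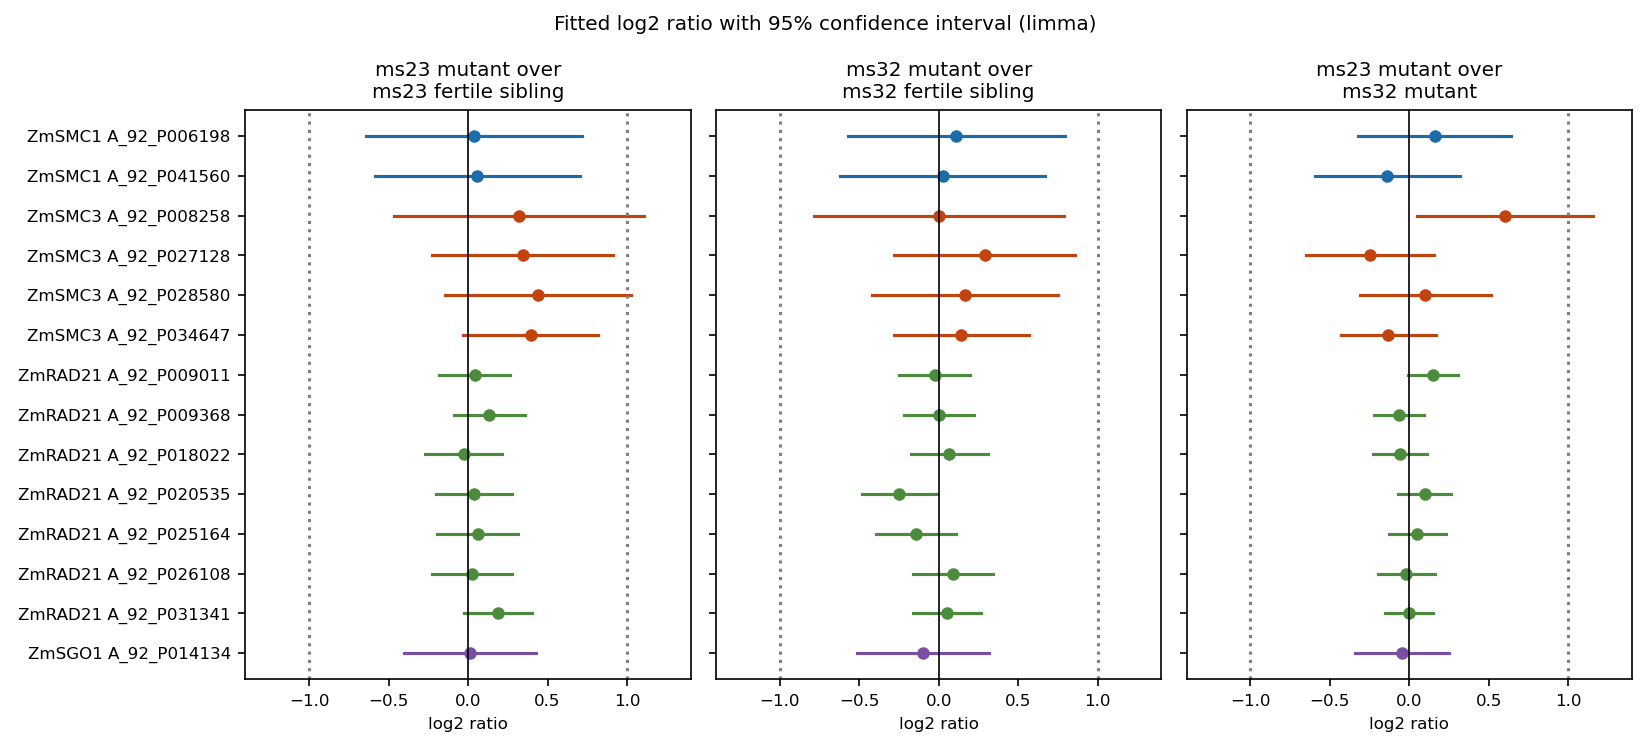
Each point is the fitted log2 ratio of a probe (horizontal axis) with its 95% confidence interval from limma as a line, for the 3 comparisons made directly on arrays, coloured by gene; dotted lines mark a 2-fold difference. The 4 ZmSMC3 points stand to the right of 0 in the ms23 comparison, at 0.32 to 0.44, and the interval of ZmSMC3 A_92_P008258 lies above 0 in the comparison of the mutants.

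The same question was put to the ms32 mutant. Here the limma test called 0 of 14 probes, against 0.49% of all probes tested (196 probes, and 0 with each dye swap averaged into 1 value), and the smallest adjusted p was 0.606. At an unadjusted p under 0.05 there was 1 member probe, against 7.82% of all probes. The sample ranges overlapped for all 14 probes, where 6.26% of all probes did not overlap. The interval lay within a 2-fold difference for 14 of 14 probes and for 82.8% of all probes tested. For the 7 ZmRAD21 probes and the ZmSGO1 probe the offset narrows it, so it sets no bound.

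The probe at the low unadjusted p was ZmRAD21 A_92_P020535. It had levels of 6.63 and 6.91 in the ms32 fertile sibling, and the 6 mutant samples ran from 6.16 through a median of 6.83 to 7.19, on both sides of the sibling. Its ratio on the arrays was -0.33 and -0.17, and the limma log2 ratio was -0.25 ± 0.097 (SE), with an adjusted p of 0.606. The other 3 measured ZmRAD21 probes lay between -0.023 and 0.091, and the mean of the 4 was -0.032.

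ZmSMC3 had a mean log2 ratio of 0.15 in the ms32 mutant, with array means of 0.10 and 0.20, and 6 of its 8 single ratios were above 0. Over the 4 genes, 5 of 14 probes were above 0 on both arrays, against 22.1% of all probes. On A_92_P034647 the sibling samples were at 11.66 and 11.98, within the mutant range of 11.52 to 12.33, and the limma log2 ratio was 0.14 ± 0.17 (SE). The largest ratio was that of A_92_P027128, 0.29, with an interval from -0.28 to 0.86 and a limma adjusted p of 0.933. Its sibling samples, 9.68 in Cy3 and 8.51 in Cy5, differed more than this ratio.

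ZmSMC1 had a mean log2 ratio of 0.068 in the ms32 mutant. A_92_P006198 had sibling samples at 9.88 and 9.76 and mutant samples at 8.39 to 10.27, and A_92_P041560 had 10.06 and 9.12 against 8.88 to 10.48. The mutant samples enclosed those of the sibling on both probes. ZmSGO1 had a log2 ratio of -0.10 with an interval from -0.52 to 0.32. Its arrays opposed each other, at 0.18 and -0.38, and its sibling samples were at 6.89 and 8.16 against 6.48 to 7.90 in the mutant.

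**Figure D3:**
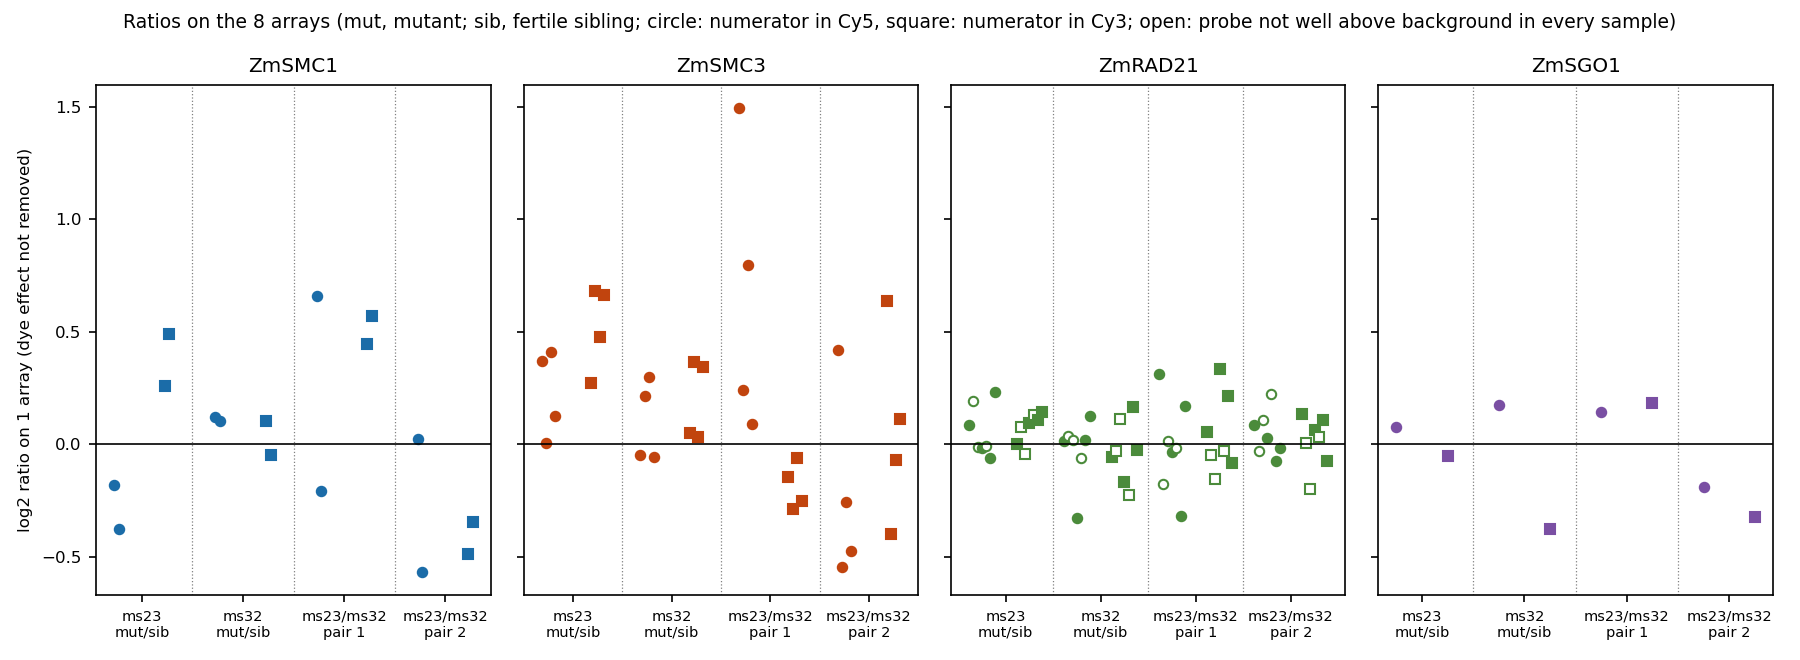
The log2 ratio on each single array (vertical axis, dye effect not removed) is shown for every probe of a gene, with the comparison along the horizontal axis, circles where the numerator was labelled with Cy5 and squares where it was labelled with Cy3. All 8 ZmSMC3 ratios of the ms23 mutant over its sibling are above 0, whereas the ZmSMC1 ratios of the ms23 over the ms32 mutant are mostly above 0 in dye-swap pair 1 and mostly below 0 in pair 2.

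The mutants were then set against each other on 4 arrays. The limma test called 0 of 14 member probes, where it called 20.6% of all probes tested (8227 probes, and 4415 with each dye swap averaged into 1 value). At an unadjusted p under 0.05 there was 1 member, against 34.1% of all probes. The median size of the log2 ratio without sign was 0.099 for the members and 0.18 for all probes. The sample ranges of the mutants overlapped for all 14 members, where 7.73% of all probes did not overlap. The interval lay within a 2-fold difference for 13 of 14 members and for 79.7% of all probes. The offset draws the ratios of the 7 ZmRAD21 probes and the ZmSGO1 probe toward 0, which enters both the median size and this count.

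The largest ratio of the members was that of ZmSMC3 probe A_92_P008258, at 0.60 ± 0.23 (SE; 1.52-fold) with an interval from 0.046 to 1.15. The 4 arrays gave 1.50, -0.15, 0.42 and 0.63, so 3 were above 0. The ms23 mutant samples stood at 7.91 to 9.19 with a median of 8.60, and the ms32 mutant samples at 7.10 to 8.76 with a median of 8.44. The limma adjusted p was 0.121. It was 0.0463 where dye-swapped arrays entered as a block with the estimated correlation, which was negative (-0.277). With a preset correlation of 0.5, or with the swaps averaged, the probe was not called. The ratio was 0.31 without the array at 1.50 and 0.28 with median centring in place of loess. The other 3 ZmSMC3 probes, A_92_P027128, A_92_P034647 and A_92_P028580, had ratios of -0.25, -0.13 and 0.10. The 4 probes of the gene thus spread over both directions, and their mean was 0.080.

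ZmSMC1 had a mean log2 ratio of 0.010 between the mutants, made up of opposed dye-swap pairs. The pair of replicate 1 averaged 0.36 (arrays at 0.22 and 0.51), and the pair of replicate 2 averaged -0.34 (arrays at -0.27 and -0.42). ZmSGO1 split in the same way, with 0.14 and 0.18 on the arrays of replicate 1 and -0.19 and -0.32 on those of replicate 2, and a fitted ratio of -0.047 (interval -0.34 to 0.25). Both arrays of a pair had 1 sign and both of the other the opposite sign for 2 of 14 members, ZmSGO1 and ZmRAD21 A_92_P025164, against 5.45% of all probes. The pair means had opposite signs for 7 of 14 members, against 26.9% of all probes, and the median difference between pairs without sign was 0.13 for the members and 0.16 for all probes. For ZmSMC1 and ZmSGO1 the difference between the pairs was larger than the fitted ratio between the mutants.

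ZmRAD21 had a mean log2 ratio of 0.056 between the mutants over 4 measured probes, with single probes from -0.018 to 0.15. A_92_P009011 was above 0 on all 4 arrays, from 0.054 to 0.31. It was the 1 member of 14 with the same sign throughout, against 39.6% of all probes. Its ms23 mutant samples were at 6.08 to 6.61 and its ms32 mutant samples at 6.12 to 6.35, and the limma log2 ratio of 0.15 had an interval from -0.011 to 0.30 and an adjusted p of 0.173.

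**Figure D4:**
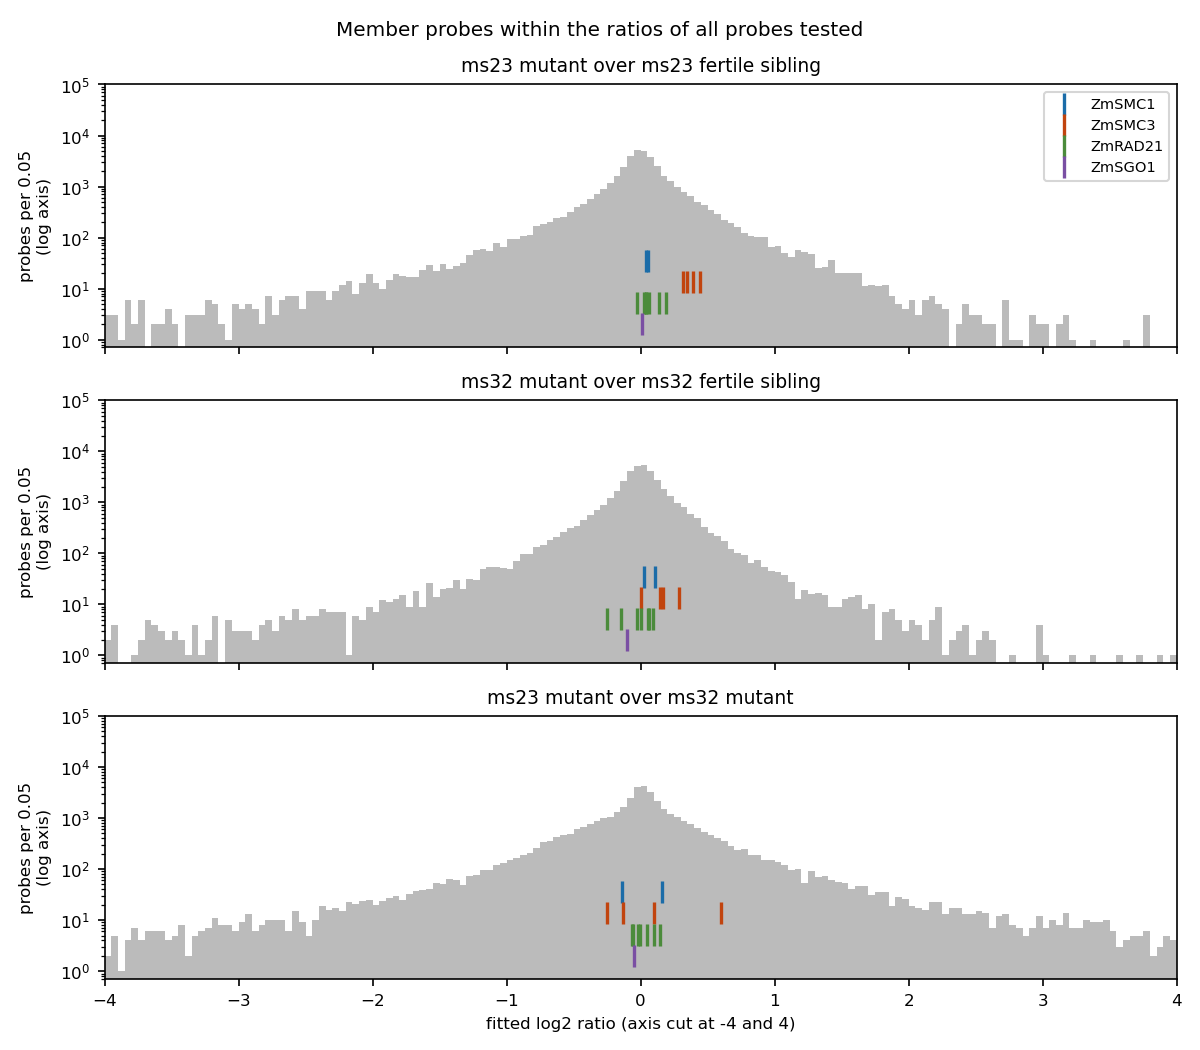
Grey bars count all probes tested by fitted log2 ratio (horizontal axis, bins of 0.05, probe count on a log axis) in the 3 direct comparisons, and the coloured ticks, placed at arbitrary heights, mark the 14 member probes. Nearly all ticks fall in the central peak; ZmSMC3 probes reach 0.44 in the ms23 comparison and 0.60 in the comparison of the mutants.

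Whether a member responded differently in the families was tested by subtracting the ratio in ms32 from that in ms23. The limma test called 0 of 14 probes and 0.03% of all probes, and 0 members against 5.68% of all probes had an unadjusted p under 0.05. The ZmSMC3 mean ratio was 0.37 in ms23 and 0.15 in ms32, a difference of 0.22 with single probes between 0.053 and 0.32, and all 4 intervals included 0. That mean difference was -0.00037 without slide 2 array 4, the array with the ms23 mutant in Cy3, and 0.56 with median centring in place of loess. The difference was 0.10 for ZmRAD21, 0.11 for ZmSGO1 and -0.021 for ZmSMC1. For ZmSMC3 A_92_P008258, the widest case, the interval ran from -0.79 to 1.43, so the arrays leave room for a more than 2-fold difference on this probe.

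The fertile siblings of the families shared no array, and their ratio was linked through the mutants. It was called for 0 of 14 members and for 2.07% of all probes, and at an unadjusted p under 0.05 for 0 members and 11.9% of all probes. The mean log2 ratio of the ms23 over the ms32 sibling was 0.031 for ZmSMC1, -0.14 for ZmSMC3, -0.049 for ZmRAD21 and -0.16 for ZmSGO1. None of these kept 1 direction throughout: over 23 alternative settings they ran from -0.63 to 0.35, from -0.80 to 0.081, from -1.17 to 0.037 and from -0.42 to 0.079. They were above 0 in 16 settings for ZmSMC1 and in 1 for each other gene, but the settings draw on the same arrays. The -1.17 came from the authors' deposited table, which lists some ZmRAD21 values at 0. Leaving out slide 2 array 4 gave 0.081 for ZmSMC3, and leaving out slide 2 array 2 gave 0.079 for ZmSGO1. The interval stayed within a 2-fold difference for 8 of 14 members and for 58.0% of all probes. The 8 are the 7 ZmRAD21 probes and the ZmSGO1 probe, whose ratios the offset draws toward 0. The ZmSMC3 probes again differed among themselves, from -0.38 (A_92_P034647) to 0.28 (A_92_P008258).

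The agreement between probes of a gene varied with the comparison. The 4 ZmSMC3 probes had a standard deviation of 0.054 around their mean in the ms23 comparison, 0.12 in the ms32 comparison and 0.38 between the mutants. The 4 measured ZmRAD21 probes had standard deviations of 0.077, 0.15 and 0.079 in the same order. For ZmSMC1 the 2 probes differed with a standard deviation of 0.015, 0.060 and 0.21. The values for ZmRAD21 carry less weight, since with an offset of 10 in place of 50 its mean ratio in the ms23 mutant was 0.13 in place of 0.073. The dye term was called for 0 of 14 members and 0% of all probes.

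Other genes of the pathway were looked up by a list of 62 names of cohesin, meiotic and kinetochore genes. AM1, which switches maize meiocytes from mitosis to meiosis, was the name that matched, with 3 probes. The limma test called 0 of the 3 in each of the 3 direct comparisons. Their log2 ratios were 0.048 to 0.099 in the ms23 mutant, -0.30 to -0.045 in the ms32 mutant and -0.33 to 0.26 between the mutants. The 3 AM1 probes, like those of ZmSMC3, lay on both sides of 0 between the mutants.

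The target names with profiles most like each gene were sought among 26917 probes well above background in all 16 samples, after each dye's mean was subtracted. For ZmSGO1 they were TC279242 (r = 0.936) and TC292740 (r = 0.928), and for ZmSMC1 CF043314 (r = 0.889) and TC304390 (r = 0.872). For ZmRAD21 they were TC294022 (r = 0.882) and TC290651 (r = 0.882), and for ZmSMC3 TC290053 (r = 0.859) and TC285882 (r = 0.844). These are Pearson correlations over 16 samples that share arrays in pairs and are the highest of many, and they describe the profiles only.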

How the data were processed

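Per the file headers, the arrays were scanned and quantified with Agilent Feature Extraction 10.5.1.1, which gave the deposited median intensity of each spot and its local background per dye, a processed intensity, and marks of 0 or 1 for saturation, outliers and spots well above background. The authors also deposited a table of processed intensity values; the submitters' processing notes name limma, and its centring and the cause of its values at 0 stay unknown. No genome build was stated, and no coordinates are reported.

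Analyses used limma 3.58.1 (with statmod 1.5.0) in R 4.3.3. Background was corrected by normexp (offset 50) and Cy5 over Cy3 log2 ratios were normalised by loess within each array. Outlier spots (1322) and control spots (1417) had weight 0 and were left out. A probe was tested if 50% or more of the samples of any group had it well above background. One model over 8 arrays gave each ratio, with 4 residual and 1.95 prior degrees of freedom and Benjamini-Hochberg adjustment over all tested probes. Levels used Aquantile scaling between arrays. Figures were drawn with matplotlib 3.10.9. The model was run on simulated data with errors drawn independently for each array and planted changes larger than the fitted member ratios. Such data hold no RNA shared within a dye swap, so they do not check the p-values on that point.

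Every member probe was named, with the mean over the probes of a gene that were well above background in all samples. Genes most alike were the 2 with the highest correlation. Members, lists and tests were chosen with earlier results of these data known. Samples were grouped by title, and 0 sample columns were left unused. Both arrays of a dye swap hold samples of the same titles and replicate numbers and may share RNA. Their consensus correlation was -0.277, which does not settle this; the fit has no block and counts each array singly, and blocked and averaged fits were alternatives. The precision is limited by the number of arrays. Alternatives changed the background correction, normalisation, filter, dye term, variance model, block, slide, model, input table and arrays used.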

Additional observations from a re-analysis of the deposited data

How the results depend on the processing

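Over 24 alternative settings, 0 of 14 member probes were called in the ms23 comparison, the ms32 comparison, the difference of the mutant effects and the ratio of the siblings (23 settings for the last, since no single slide holds it). Between the mutants the count was 1, ZmSMC3 A_92_P008258, with a replicate block at the estimated correlation of -0.277 (limma adjusted p = 0.0463), and 0 in the other 23, among them the replicate block at a preset correlation of 0.5 (adjusted p = 0.497) and the one with dye-swapped arrays averaged (adjusted p = 0.0529). Leaving out each array in turn gave 0 to 0 called members. The count over all probes moved more: from 0 to 1771 for the ms23 mutant, 0 to 840 for the ms32 mutant, 2464 to 12015 between the mutants, 0 to 239 for the difference and 0 to 2707 for the siblings, the highest each time in the separate-channel fit. With the block at the estimated correlation these were 1410, 431, 11843, 47 and 1606 probes, and with the swaps averaged 32, 0, 4415, 0 and 0. No setting moved the median of all probes by over 0.1 on the log2 scale, and Aquantile scaling leaves ratios as they are by construction. The ZmSMC3 mean ratio in the ms23 mutant lay between 0.15 and 0.76 and above 0 in 24 of 24 settings. All settings draw on the same 2 arrays, or on 1 of them, with means of 0.23 and 0.52, so this count adds no independent reading. Between the mutants median centring in place of loess gave ZmSMC3 -0.24 and ZmSMC1 -0.32; the cause was not tested. The ZmRAD21 probes carry little signal over background: the authors' deposited table lists A_92_P009368 at 0 in 15 of 16 samples and A_92_P018022 in 10. Neither enters the ZmRAD21 mean, which was -0.76 in the ms32 mutant with that table, against -0.032. Of the probes that do enter, A_92_P009011, listed at 0 in 5 samples, had a log2 ratio of -2.94 with that table.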
